A study of Mus musculus with 6 samples.

Results

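Pericyte genes were followed across 6 RNA-seq libraries of mouse lung cells. The set holds 9 genes of the 49315 in the count table: Pdgfrb, Cspg4, Notch3, Kcnj8, Abcc9, Trpc6, Rgs5, Cox4i2 and Higd1b. They were taken by gene name, each being in use as a marker of pericytes. All 9 had at least 10 reads in the higher library of every comparison, so none was lost to the filter on low counts.

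The lungs came from male C57BL/6J mice, given as C57BL/6 in the labels, whose age is not given in the sources used here. Sham mice, labelled as controls, received saline, and BLM mice received bleomycin sulfate into the oropharynx, a standard way to provoke lung fibrosis. Lungs were taken 21 days after instillation, several lungs of a group were pooled, and the dissociated cells were sorted by an antibody to Lamp1 on the cell surface, a lysosomal membrane protein, after dead cells were gated out with 7-AAD. Each treatment gave 1 library of unsorted cells, 1 of Lamp1-depleted cells and 1 of Lamp1-enriched cells. No mouse carried a transgene or deletion that the labels mention. With 1 library per condition there is no replicate error, and the 3 fractions of a treatment share their lungs.

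Totals ran from 30236120 to 52918696 counted reads per library. The BLM Lamp1-depleted library stands apart, with 38.4% of its reads on the single gene Gm26917 against 0.884 to 7.10% in the other libraries. It also had the smallest total and the fewest genes with at least 10 reads, 17870. The comparisons of unsorted cells, of Lamp1-enriched cells and of sham fractions do not use it. With scaling factors computed without it, the members' median log2 ratio of BLM over sham was -1.45 in unsorted cells, against -1.37 with it, and -0.83 in Lamp1-enriched cells in both cases. Levels are CPM, reads per 1000000 counted reads, with library sizes scaled by the trimmed mean of M values (TMM). That scaling aims to set the bulk of genes equal between libraries. Differences are log2 ratios of these scaled counts, each with a 95% counting interval in brackets that covers counting error only and says nothing about differences between mice. A gene is counted as higher or lower at a ratio of at least 2-fold. Where the BLM Lamp1-depleted library entered, the median log2 ratio over all genes still lay off 0. It was 0.29 for Lamp1-enriched over Lamp1-depleted BLM cells and -0.20 for BLM over sham Lamp1-depleted cells. For Lamp1-depleted over unsorted BLM cells it was -0.34. The transcript of the sorted protein, Lamp1, stood at 491 CPM in sham Lamp1-enriched against 146 in sham Lamp1-depleted cells, and at 378 against 111 after BLM. In BLM unsorted cells Lamp1 reached 501 CPM, above both sorted fractions.

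Pericytes are mural cells that share a basement membrane with the endothelium of capillaries and small venules. They are recruited by PDGF-B, which endothelial cells release and which acts on the receptor encoded by Pdgfrb, and Notch ligands on the endothelium keep mural cells in their differentiated state through Notch3. In the alveolar wall they sit on the capillary net where gas is exchanged, and in fibrosis models they have been studied as a source of scar-forming cells. Most of these genes are not made by pericytes alone: vascular smooth muscle shares Pdgfrb, Notch3 and Rgs5, and Pdgfrb and Cspg4 are also found on fibroblasts and on other cell types.

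The stretches upstream of 4 members are shown because these genes span the patterns described here. Trpc6 and Rgs5 were both enriched with Lamp1 in sham and BLM lungs. Cspg4 was enriched with Lamp1 as well but was higher after BLM in unsorted cells. Kcnj8 was not enriched with Lamp1 in sham lungs. The sequences are those of RefSeq on GRCm38.p6, for which 6 of the 9 members had an entry (Cspg4, Notch3, Kcnj8, Abcc9, Trpc6 and Rgs5). Each runs 5′ to 3′ on the gene's own strand and ends before the start of the gene. Capitals mark ACGTG, the core of the element bound by hypoxia-inducible factors, read on both strands (CACGT on the other).
Trpc6, chr9:8543892-8544141, plus strand: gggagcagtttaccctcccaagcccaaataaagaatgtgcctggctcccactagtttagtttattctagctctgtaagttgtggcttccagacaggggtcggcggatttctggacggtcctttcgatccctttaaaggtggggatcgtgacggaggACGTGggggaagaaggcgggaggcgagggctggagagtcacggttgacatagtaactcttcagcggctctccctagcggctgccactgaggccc
Rgs5, chr1:169655251-169655500, plus strand: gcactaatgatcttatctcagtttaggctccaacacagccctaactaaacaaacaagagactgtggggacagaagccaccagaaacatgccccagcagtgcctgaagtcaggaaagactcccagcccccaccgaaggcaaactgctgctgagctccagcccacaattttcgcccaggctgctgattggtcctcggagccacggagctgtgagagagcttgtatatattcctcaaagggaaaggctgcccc
Cspg4, chr9:56864854-56865032, plus strand: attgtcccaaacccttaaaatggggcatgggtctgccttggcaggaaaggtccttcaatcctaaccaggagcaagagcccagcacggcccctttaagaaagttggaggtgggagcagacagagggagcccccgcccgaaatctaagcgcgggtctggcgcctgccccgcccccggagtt
Kcnj8, chr6:142571615-142571864, minus strand: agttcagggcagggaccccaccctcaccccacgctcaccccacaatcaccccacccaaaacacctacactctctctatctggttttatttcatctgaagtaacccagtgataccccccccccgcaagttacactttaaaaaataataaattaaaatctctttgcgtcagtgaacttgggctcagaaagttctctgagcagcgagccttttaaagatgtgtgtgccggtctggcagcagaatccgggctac

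Over the full 250 bases before each start, ACGTG or CACGT occurred 1 time in Trpc6 and 1 time in Notch3, and in none of the other 4 members with an entry. The same letters were found in 16.6% of the 32851 windows of this length in RefSeq's table. TGGGAA, the core motif of RBPJ, the DNA-binding partner of Notch receptors, was searched on both strands (TTCCCA on the other). It occurred 1 time in Abcc9 and in none of the other 5, against 21.6% of all windows. ACGTG and TGGGAA do not overlap one another in any of these windows. These matches describe letters and not bound sites.

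In unsorted lung cells most pericyte genes were lower after BLM and 1 was higher. Of the 9 members, 5 were at least 2-fold lower (Trpc6, Higd1b, Cox4i2, Notch3 and Pdgfrb), Kcnj8, Rgs5 and Abcc9 lay within 2-fold, and Cspg4, the gene of the NG2 proteoglycan, was 4.45-fold higher. Over all 22772 genes tested in this comparison, 16.0% were at least 2-fold lower and 13.9% at least 2-fold higher. The members' median log2 ratio was -1.37 beside -0.07 over all genes. In bulk libraries a smaller number of cells of a type and less RNA per cell cannot be told apart.

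**Figure D1:**
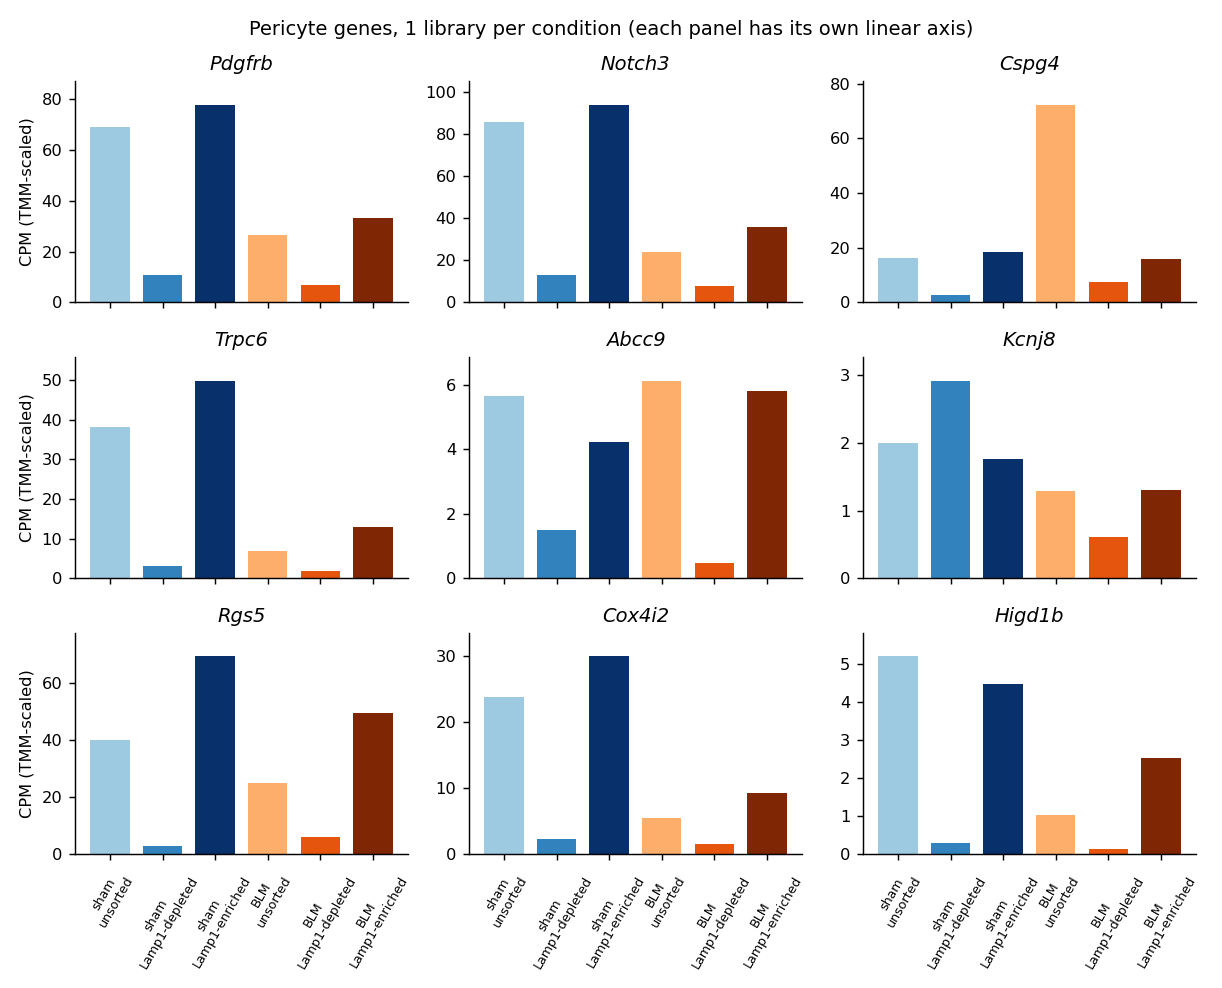
Level of each pericyte gene in the 6 libraries, as TMM-scaled CPM on a linear axis that starts at 0 and differs between panels; each bar is 1 library, so there are no error bars. The tallest bars of Pdgfrb, Notch3, Trpc6, Cox4i2 and Higd1b are sham unsorted and sham Lamp1-enriched cells, and Rgs5 peaks at 69.4 CPM in sham Lamp1-enriched cells, whereas Cspg4 peaks at 72.3 CPM in BLM unsorted, Kcnj8 at 2.92 CPM in sham Lamp1-depleted and Abcc9 at 6.13 CPM in BLM unsorted cells.

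Pdgfrb encodes the receptor for PDGF-B and lies at chr18:61045150-61085061 on the plus strand. Its level was 69.1 CPM in sham unsorted, 10.8 in sham Lamp1-depleted, 77.8 in sham Lamp1-enriched, 26.6 in BLM unsorted, 7.01 in BLM Lamp1-depleted and 33.2 in BLM Lamp1-enriched cells. Both Lamp1-depleted libraries were thus the lowest, and each BLM library was below its sham counterpart. BLM over sham, the log2 ratio was -1.37 (-1.48 to -1.27) in unsorted, -0.63 (-0.90 to -0.36) in Lamp1-depleted and -1.23 (-1.31 to -1.15) in Lamp1-enriched cells. With 148 to 3581 reads per library, the receptor was among the best measured members.

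Notch3 encodes the Notch receptor of mural cells and lies at chr17:32120820-32166852 on the minus strand. It gave 85.7 CPM in sham unsorted, 13.3 in sham Lamp1-depleted, 94.1 in sham Lamp1-enriched, 24.0 in BLM unsorted, 7.95 in BLM Lamp1-depleted and 36.0 in BLM Lamp1-enriched cells. Its profile followed that of Pdgfrb closely, with the same order of the libraries. After BLM it was 3.57-fold lower in unsorted cells, a log2 ratio of -1.84 (-1.94 to -1.73), and 2.62-fold lower in Lamp1-enriched cells, a log2 ratio of -1.39 (-1.46 to -1.31). In Lamp1-depleted cells the ratio was -0.74 (-0.996 to -0.49), which rests on 168 BLM and 606 sham reads.

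Cspg4 encodes NG2, a membrane proteoglycan used to mark pericytes, and lies at chr9:56865033-56899870 on the plus strand. In sham lungs it resembled the other surface markers, at 16.2 CPM in unsorted, 2.81 in Lamp1-depleted and 18.4 in Lamp1-enriched cells. After BLM it stood at 72.3 CPM in unsorted cells but only at 7.53 in Lamp1-depleted and 15.9 in Lamp1-enriched cells, from 2851, 159 and 865 reads. The unsorted BLM library was therefore the highest of all 6 by a wide margin, and neither sorted fraction of the same lungs came near it. BLM over sham, the log2 ratio of Cspg4 was 2.15 (2.04 to 2.27) in unsorted and 1.42 (1.08 to 1.77) in Lamp1-depleted cells, but -0.21 (-0.35 to -0.07) in Lamp1-enriched cells.

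In BLM lungs Cspg4 was 9.58-fold higher in unsorted than in Lamp1-depleted and 4.55-fold higher than in Lamp1-enriched cells. It was the only one of the 9 members at least 2-fold above both fractions, against 9.24% of the 20779 genes tested in BLM lungs. That count is close to the share over all genes. In sham lungs no member met this, against 7.63% of 22015 genes. Among markers of other cell types, Lyz2, a lysozyme of macrophages and other myeloid cells, stood at 17243 CPM in BLM unsorted against 2388 in BLM Lamp1-depleted and 2190 in BLM Lamp1-enriched cells. Mrc1, the mannose receptor of macrophages, stood at 519 against 26.8 and 59.4 CPM, Foxj1 of ciliated cells at 10.7 against 1.70 and 1.30 CPM, and the ligand gene Pdgfc at 34.6 against 3.12 and 5.45 CPM. These 4 genes were picked after their values were seen, and other leukocyte markers differed: Ptprc, the pan-leukocyte antigen CD45, stood at 866 CPM in BLM unsorted against 1267 in BLM Lamp1-depleted cells, and Cd3e of T cells at 5.65 against 52.9 CPM. Of the 10 leukocyte markers, 7 were higher in Lamp1-depleted than in unsorted BLM cells, against 8724 of 21431 genes, with a median log2 ratio of 1.17. In Lamp1-enriched against unsorted BLM cells, 4 of 9 epithelial markers and 3 of 5 PDGF genes were higher, against 11509 of 22149 genes. Ager stood at 46.4 against 33.1 CPM and Pdgfd at 93.9 against 30.6 CPM. All genes of these 2 lists were lower in Lamp1-depleted than in unsorted BLM cells, against 12707 of 21431 genes. Summed over the 10 leukocyte markers, the level ran from 1222 CPM in sham Lamp1-enriched to 19618 CPM in BLM unsorted cells, none of the 10 was at 0 in any library, and Lyz2 made up most of the sum in BLM unsorted cells. Their part in the Cspg4 level was not tested.

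Trpc6 encodes a calcium-permeable cation channel opened by diacylglycerol and lies at chr9:8544142-8680741, directly after the upstream stretch printed for it. It was measured at 38.1 CPM in sham unsorted, 3.22 in sham Lamp1-depleted, 49.9 in sham Lamp1-enriched, 6.79 in BLM unsorted, 1.85 in BLM Lamp1-depleted and 12.9 in BLM Lamp1-enriched cells. Of the 9 members Trpc6 had the lowest ratio after BLM in both unsorted cells, at -2.49 (-2.68 to -2.30), and Lamp1-enriched cells, at -1.95 (-2.08 to -1.83). In Lamp1-depleted cells the ratio was -0.80 (-1.35 to -0.29) on 39 BLM and 147 sham reads. Among its paralogs Trpc1 also stood lower after BLM, with 12.0, 2.52 and 11.6 CPM in the unsorted, depleted and enriched sham libraries against 3.09, 1.94 and 5.25 CPM in the BLM libraries. Trpc4, Trpc5 and Trpc7 were each at most 0.355 CPM. A gene on the opposite strand is annotated across part of Trpc6, Notch3 and Abcc9, and reads of such pairs cannot be told apart where strand was not used in counting, a setting that is not given in the sources used here.

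Abcc9 and Kcnj8 encode the 2 kinds of subunit of the vascular ATP-sensitive potassium channel, the sulfonylurea receptor and the pore. They are neighbours on the minus strand of chromosome 6, with 16247 bases between Kcnj8 (chr6:142564837-142571614) and Abcc9 (chr6:142587862-142702315). Their levels differed in pattern in unsorted and Lamp1-enriched cells and in the sham sort. Both were at least 2-fold lower after BLM in Lamp1-depleted cells, at -1.63 for Abcc9 and -2.22 for Kcnj8 on the log2 scale.

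Abcc9 gave 5.64 CPM in sham unsorted, 1.49 in sham Lamp1-depleted, 4.22 in sham Lamp1-enriched, 6.13 in BLM unsorted, 0.473 in BLM Lamp1-depleted and 5.82 in BLM Lamp1-enriched cells. Unlike the receptor genes it was not lower after BLM outside the Lamp1-depleted cells. Its BLM over sham log2 ratio was 0.12 (-0.14 to 0.37) in unsorted cells, where the interval holds 0 and total counts alone give -0.14, and 0.46 (0.20 to 0.73) in Lamp1-enriched cells. In Lamp1-depleted cells it was -1.63 (-2.78 to -0.69), from 10 BLM and 68 sham reads.

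Kcnj8 gave 2.00 CPM in sham unsorted, 2.92 in sham Lamp1-depleted, 1.76 in sham Lamp1-enriched, 1.29 in BLM unsorted, 0.615 in BLM Lamp1-depleted and 1.30 in BLM Lamp1-enriched cells. It was the only member whose highest library was Lamp1-depleted, that of sham lungs with 133 reads. BLM over sham, the log2 ratio was -0.62 (-1.15 to -0.12) in unsorted, -2.22 (-3.19 to -1.42) in Lamp1-depleted and -0.43 (-0.92 to 0.04) in Lamp1-enriched cells. The Lamp1-depleted ratio rests on 13 BLM reads. The paralogous channel subunits Kcnj11 and Abcc8 were near the limit of detection, at no more than 0.33 and 0.228 CPM.

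Rgs5 encodes a GTPase-activating protein that shortens signalling by G protein-coupled receptors and is abundant in mural cells. The gene lies at chr1:169655501-169695813, directly after the stretch printed for it. It gave 40.1 CPM in sham unsorted, 2.92 in sham Lamp1-depleted, 69.4 in sham Lamp1-enriched, 25.0 in BLM unsorted, 5.96 in BLM Lamp1-depleted and 49.4 in BLM Lamp1-enriched cells. Rgs5 was lower after BLM by less than 2-fold, with log2 ratios of -0.68 (-0.79 to -0.57) in unsorted and -0.49 (-0.57 to -0.42) in Lamp1-enriched cells. In Lamp1-depleted cells it went the other way, at 1.03 (0.67 to 1.39), on 126 BLM and 133 sham reads. Its paralogs differed among themselves: Rgs2 was highest in sham Lamp1-depleted cells at 239 CPM, and Rgs16 was highest in BLM Lamp1-depleted cells at 8.57 CPM. Rgs3 and Rgs4, like Rgs5, were higher in Lamp1-enriched than in Lamp1-depleted cells of both treatments. Rgs3 gave 119 against 33.3 CPM in sham and 203 against 79.2 CPM in BLM cells. Rgs4 gave 4.41 against 0.483 CPM in sham and 6.73 against 1.70 CPM in BLM cells. Over 4 RGS paralogs the median log2 ratio in unsorted cells was 0.52, with Rgs2 and Rgs16 at least 2-fold higher after BLM.

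Cox4i2 and Higd1b encode mitochondrial proteins, the first an isoform of a cytochrome c oxidase subunit found in lung, the second a member of the HIG1 domain family. Cox4i2 (chr2:152754173-152765037, plus strand) gave 23.9 CPM in sham unsorted, 2.30 in sham Lamp1-depleted, 29.97 in sham Lamp1-enriched, 5.42 in BLM unsorted, 1.56 in BLM Lamp1-depleted and 9.34 in BLM Lamp1-enriched cells. Its log2 ratio after BLM was -2.14 (-2.35 to -1.93) in unsorted and -1.68 (-1.83 to -1.53) in Lamp1-enriched cells, and -0.56 (-1.17 to 0.02) in Lamp1-depleted cells. The general isoform Cox4i1 lay between 24.2 and 35.6 CPM in all 6 libraries.

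Higd1b (chr11:102835849-102838040, plus strand) gave 5.19 CPM in sham unsorted, 0.285 in sham Lamp1-depleted, 4.48 in sham Lamp1-enriched, 1.04 in BLM unsorted, 0.142 in BLM Lamp1-depleted and 2.51 in BLM Lamp1-enriched cells. The BLM Lamp1-depleted level is 3 reads, so ratios against it are loose. Higd1b was 4.95-fold lower after BLM in unsorted cells, a log2 ratio of -2.31 (-2.83 to -1.84), and 1.78-fold lower in Lamp1-enriched cells, at -0.83 (-1.16 to -0.51). In Lamp1-depleted cells the interval ran from -3.46 to 0.86. The related gene Higd1a lay between 3.08 and 8.86 CPM. Over the 3 COX4 and HIG1 paralogs that could be tested in unsorted cells the median was -0.32 after BLM, and none passed 2-fold.

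**Figure D2:**
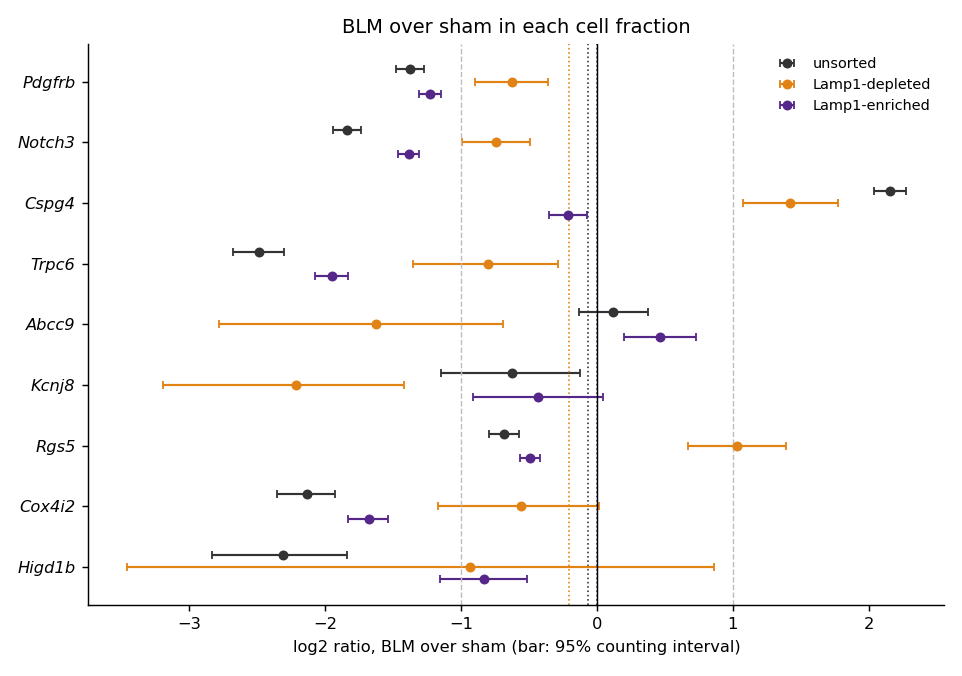
Log2 ratio of BLM over sham for each pericyte gene in unsorted (black), Lamp1-depleted (orange) and Lamp1-enriched cells (purple), 1 library against 1, with bars for the 95% counting interval, dashed lines at 2-fold and dotted lines at the median of all genes. Cspg4 lies at 2.15 in unsorted cells and -0.21 in Lamp1-enriched cells, while Trpc6 lies at -2.49 and -1.95.

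Within the Lamp1-enriched cells alone, BLM over sham left 4 members at least 2-fold lower (Trpc6, Cox4i2, Notch3 and Pdgfrb) and none at least 2-fold higher. Over all 21671 genes the shares were 7.86% lower and 10.2% higher. The members' median log2 ratio was -0.83 beside 0.00 over all genes. In the Lamp1-depleted cells 2 members were lower (Kcnj8 and Abcc9) and 2 higher (Cspg4 and Rgs5), with 22.3% of 20852 genes lower and 13.7% higher, and 2 of 9 is close to these shares. Both counts depend on the scaling: with library sizes set by total counts alone, which shifts all ratios of this comparison by -0.72, 7 members were lower and none higher, Cspg4 standing at 0.70 and Rgs5 at 0.31. Of the TMM-scaled ratios, those of Kcnj8 and Abcc9 rest on 13 and 10 reads in the BLM library.

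Most pericyte transcripts were higher in Lamp1-enriched than in Lamp1-depleted cells. In sham lungs 8 of the 9 members were at least 2-fold higher, against 27.5% of 21867 genes, and none was at least 2-fold lower, against 25.2%. In BLM lungs all 9 were at least 2-fold higher, against 34.3% of 21838 genes, and none lower, against 22.6%. Cspg4 and Kcnj8 were close to the 2-fold line: 7 members were called with DESeq2 size factors, which put both at 0.92, and 7 with total counts without Gm26917, at 0.96 and 0.95. Rgs5 had the highest ratio in sham lungs, 23.7-fold or 4.57 on the log2 scale (4.32 to 4.83), with Trpc6 at 3.95 (3.71 to 4.20), Higd1b at 3.92 (3.17 to 4.91) and Cox4i2 at 3.70 (3.41 to 4.002). The surface markers Pdgfrb at 2.85 (2.71 to 2.99), Notch3 at 2.82 (2.70 to 2.95) and Cspg4 at 2.71 (2.44 to 2.99) lay close together. The counting intervals of these 3 overlap.

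The channel genes were again apart. Abcc9 was 2.81-fold higher in Lamp1-enriched cells of sham lungs, at 1.49 (1.09 to 1.92), and 12.0-fold higher in those of BLM lungs, at 3.58 (2.72 to 4.69). Kcnj8 was lower in Lamp1-enriched cells of sham lungs, at -0.73 (-1.15 to -0.32), and higher in those of BLM lungs, at 1.07 (0.22 to 2.06). For 6 members the TMM-scaled BLM ratio was smaller than the sham ratio, with a counting interval of the difference that stayed below 0: Pdgfrb at 2.24 (2.002 to 2.496), Notch3 at 2.18 (1.95 to 2.41), Trpc6 at 2.79 (2.34 to 3.31), Rgs5 at 3.05 (2.79 to 3.32), Cox4i2 at 2.57 (2.07 to 3.13) and Cspg4 at 1.07 (0.83 to 1.33). These differences depend on the scaling, since total counts alone raise each by 0.73. The difference of BLM from sham then stayed below 0 for Rgs5, at -0.79 (-1.15 to -0.43), and for Cspg4, at -0.90 (-1.26 to -0.54). Under the same total counts the intervals of Trpc6 and Cox4i2 held 0, and Pdgfrb at 0.13 (-0.15 to 0.41) and Notch3 at 0.09 (-0.17 to 0.34) were above it. Higd1b had a TMM-scaled BLM ratio of 4.02 (2.57 to 6.44), an interval set by its 3 reads in BLM Lamp1-depleted cells. All BLM ratios of this kind share the Lamp1-depleted library that stands apart.

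**Figure D3:**
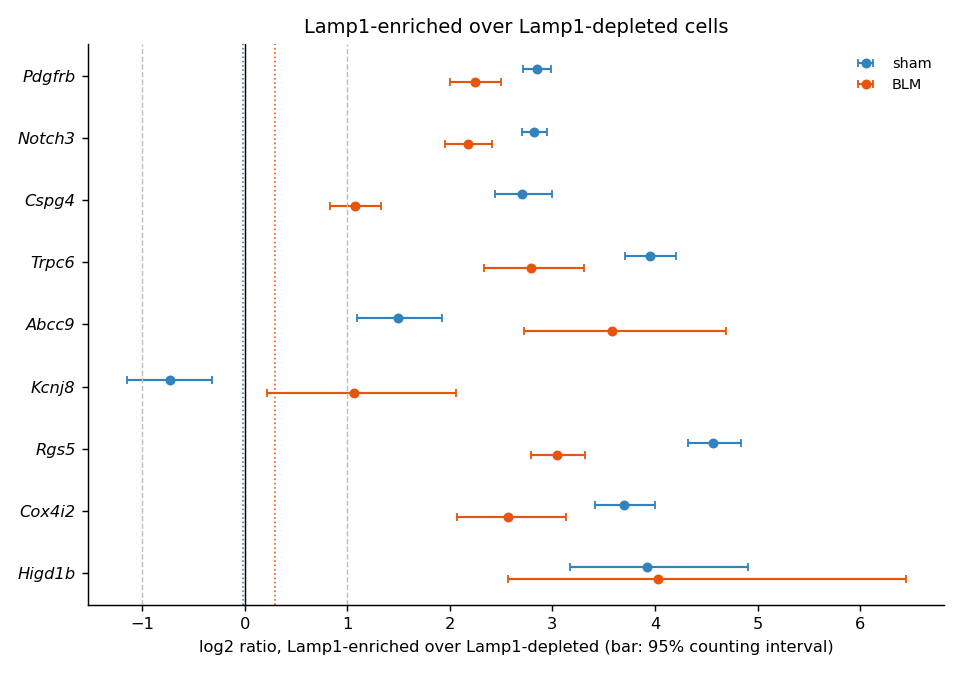
Log2 ratio of Lamp1-enriched over Lamp1-depleted cells for each pericyte gene in sham (blue) and BLM lungs (orange), 1 library against 1, with bars for the 95% counting interval, dashed lines at 2-fold and dotted lines at the median of all genes. Kcnj8 is the only point left of 0, at -0.73 in sham lungs, and Rgs5 in sham lungs is the point farthest right at 4.57.

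The sort is the one contrast that occurs in both treatments, so the 4 sorted libraries could be tested together with treatment as a block. By edgeR's quasi-likelihood test with Benjamini-Hochberg adjustment over 20593 genes, 8 of the 9 members were higher in Lamp1-enriched cells, and 21.5% of all genes were. Adjusted p ran from 3.09e-19 for Rgs5 (log2 ratio 3.72) through 2.76e-10 for Pdgfrb (log2 ratio 2.46) and 0.000107 for Cspg4 (log2 ratio 1.79) to 0.000300 for Abcc9 (log2 ratio 2.35) in that edgeR fit. Kcnj8 had a log2 ratio of 0.01 and an adjusted p of 0.993 by the same edgeR test, its sham and BLM ratios having opposite signs. The size of these adjusted p depends on the scaling and on the libraries in the fit. With total counts alone, edgeR's quasi-likelihood test gave 1.76e-05 for Rgs5, 0.00155 for Pdgfrb and 0.0144 for Cspg4. With TMM kept and the unsorted libraries added to the fit, edgeR's quasi-likelihood test gave 0.000136 for Rgs5, 0.000209 for Pdgfrb and 0.0103 for Cspg4. The fit of the 4 sorted libraries has 1 residual degree of freedom and tests the sort over 2 pools of lungs, not the effect of BLM. Its prior degrees of freedom were infinite, so the error behind each adjusted p was shared across genes.

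Against unsorted cells the Lamp1-enriched libraries lay within 2-fold in most pericyte genes. The members' median log2 ratio was 0.17 in sham and 0.58 in BLM lungs, beside -0.03 and 0.04 over all genes. In sham lungs all 9 members lay within 2-fold, from -0.42 (-0.69 to -0.15) for Abcc9 to 0.79 (0.71 to 0.87) for Rgs5, and with total counts alone the small positive ratios of Pdgfrb, Notch3 and Cspg4 turned to -0.05, -0.09 and -0.04, while 2.63% of 22323 genes were at least 2-fold higher and 15.9% lower. In BLM lungs Higd1b was higher, at 1.27 (0.76 to 1.81), Cspg4 was lower, at -2.19 (-2.30 to -2.08), and the other 7 lay within 2-fold, against 12.6% of 22149 genes higher and 19.1% lower. Of these 7, Rgs5 at 49.4 against 25.0 CPM and Trpc6 at 12.9 against 6.79 CPM came closest to 2-fold. Lamp1-depleted cells, in contrast, were at least 2-fold below unsorted cells in 8 of 9 members in sham lungs, against 30.4% of 22925 genes, and in all 9 in BLM lungs, against 33.6% of 21431. The sham exception was Kcnj8 at 0.54 (0.16 to 0.94).

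A second group of 14 genes that are also used as pericyte markers gave a like picture. Like the members, it was chosen with earlier results of these data known, so it is not independent support. In unsorted cells 11 of the 14 were at least 2-fold lower after BLM, against 16.0% of all genes tested. Of the 14, 13 had a ratio below 0, against 12196 of the 22772 genes tested, and the median log2 ratio was -1.78. Gucy1a1 and Gucy1b1, the subunits of the nitric oxide receptor guanylate cyclase, stood at 209 and 106 CPM in sham against 41.0 and 20.1 CPM in BLM unsorted cells, log2 ratios of -2.35 and -2.39. Agtr1a, an angiotensin receptor, was at -2.49, Ndufa4l2, a mitochondrial protein induced by hypoxia, at -2.23, and Postn, an extracellular matrix protein, at -1.85. Mcam, an adhesion molecule that endothelial cells also carry, was the exception at 0.20, with 219 CPM in sham and 253 CPM in BLM unsorted cells.

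In Lamp1-enriched cells 9 of these 14 genes were at least 2-fold lower after BLM, against 7.86% of all genes tested. Mcam was higher at 1.11, against 10.2% of all genes, and the median log2 ratio was -1.50. By Lamp1, 13 of the 14 were at least 2-fold higher in enriched than in depleted sham cells (median 3.06), against 27.5% of all genes. In BLM cells 12 of 14 were (median 2.19), against 34.3%. Ebf1, a transcription factor that B cells also make, went the other way, at -3.04 and -3.40, with 364 CPM in sham Lamp1-depleted cells. In Lamp1-depleted cells 13 of the 14 could be tested for BLM over sham, 4 were lower and 1 (Heyl) was higher. Over all genes 22.3% were lower and 13.7% higher, so these counts are not far from the shares. The median was -0.42 beside -0.20 over all genes.

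The ligands of PDGF receptors did not move as a group after BLM. Pdgfb, the ligand gene of endothelial cells, gave 163 CPM in sham and 169 in BLM unsorted cells, and Pdgfa 12.2 and 15.1 CPM. Pdgfc stood at 3.56 CPM in sham and 34.6 in BLM unsorted cells, a log2 ratio of 3.27, whereas Pdgfd was lower at -1.07 and Pdgfra, the receptor of fibroblasts, at -1.61. Over these 5 PDGF genes the median was 0.05 in unsorted and 0.05 in Lamp1-enriched cells.

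On the Notch side, 4 of 11 ligands, receptors and targets were at least 2-fold lower in unsorted cells after BLM, against 16.0% of all genes. None was at least 2-fold higher, against 13.9%, and the median was -0.74. Dll4, a ligand of capillary endothelium, was at -1.22, the target genes Hes1, Hey1 and Hey2 at -1.29, -1.03 and -1.12, and Jag1 at -0.27. In Lamp1-enriched cells none of the 11 was at least 2-fold lower, against 7.86% of all genes, and Jag2 was higher at 1.24, against 10.2%. Heyl, a target of Notch3 in mural cells that also stands among the pericyte genes, was at -0.11. Notch2 was the only one of the 11 that was lower in Lamp1-enriched than in Lamp1-depleted cells, at -2.40 in sham and -2.36 in BLM lungs.

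Other cell types moved as well. In unsorted cells after BLM, all 12 endothelial markers were below 0 (median -0.84, 5 at least 2-fold lower). So were 8 of 11 smooth muscle markers (median -0.998), all 8 platelet markers (median -2.02) and all 4 cardiac muscle markers (median -1.80). Of all 22772 genes tested, 12196 were below 0 and 16.0% were at least 2-fold lower. The fibroblast median was -0.44, with Col1a1 at 2.17 and Pdgfra at -1.61, the epithelial median -0.47, the glial median -0.63, the leukocyte median 0.84 and the mesothelial median 0.92. In Lamp1-enriched cells the endothelial median was 0.06 with none of 12 at least 2-fold lower, against 7.86% of all genes. The smooth muscle median there was -0.49, the fibroblast median 0.30, the leukocyte median -0.27 and the epithelial median 0.07. The glial median was -0.21, the cardiac muscle median -0.71, the mesothelial median 2.44 and the platelet median -2.75. The medians of the pericyte groups, -0.83 and -1.50, thus lay below all of these but that of platelets. The rows of dots in the plot of marker lists show the spread behind these medians. No test compares them, since each list is read in 1 library against 1.

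By Lamp1 in sham lungs, the list medians were 3.08 for endothelial, 2.87 for smooth muscle, 4.64 for platelet, 2.30 for epithelial, 1.49 for fibroblast, 2.41 for cardiac muscle, 1.36 for glial, -1.05 for mesothelial and -3.69 for leukocyte markers, beside 2.85 for the 9 members. In BLM lungs they were 3.58, 2.52, 3.53, 1.47, 2.23, 0.78, -0.80, 1.41 and -2.70 in the same order, beside 2.57 for the members. Over all genes the median was -0.01 in sham and 0.29 in BLM lungs. Enrichment with Lamp1 was therefore not particular to pericyte genes. Summed over each list, the 12 endothelial markers ran from 1259 CPM in BLM Lamp1-depleted to 20708 CPM in sham Lamp1-enriched cells, the 11 smooth muscle markers from 63.4 to 560 CPM in the same libraries and the 9 pericyte genes from 33.1 to 350 CPM. Of the defining smooth muscle markers Cnn1 was at 0 and Actg2 at 3 reads in BLM Lamp1-depleted cells, and none of the 12 endothelial markers was at or under 3 reads in any library. The part of smooth muscle, endothelial and platelet RNA in the members' ratios was not tested.

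**Figure D4:**
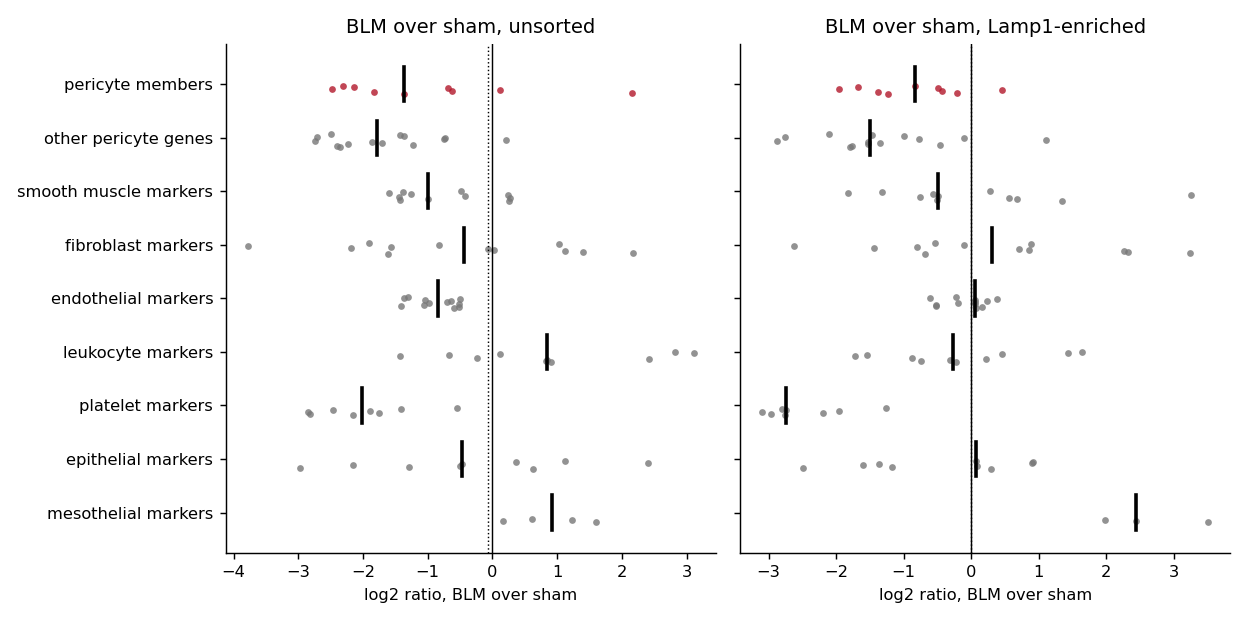
Log2 ratio of BLM over sham for each gene (points) of the pericyte set (red) and of 8 other marker lists (grey) in unsorted and in Lamp1-enriched cells, 1 library against 1, with black bars at the list medians and a dotted line at the median of all genes. The median of the 9 pericyte genes is -1.37 in unsorted and -0.83 in Lamp1-enriched cells, and that of the 14 other pericyte genes is -1.78 and -1.50.

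Levels per kilobase of exon allow the 9 genes to be ranked within a library. In sham unsorted cells the order was Cox4i2 at 30.3 CPM per kilobase, Pdgfrb at 12.6, Notch3 at 10.6, Rgs5 at 8.82, Trpc6 at 7.52, Higd1b at 6.13, Cspg4 at 1.36, Kcnj8 at 0.784 and Abcc9 at 0.674. Kcnj8 and Abcc9 were neighbours in this order on 97 and 274 reads. In BLM unsorted cells Cspg4 moved to the second place at 6.06 CPM per kilobase, after Cox4i2 at 6.88, and Trpc6 stood at 1.34. In BLM Lamp1-enriched cells Cox4i2 at 11.9 and Rgs5 at 10.9 CPM per kilobase led, and Cspg4 was seventh at 1.33.

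Across the 6 libraries the ratio of the highest to the lowest level was widest for Higd1b at 36.6 (against its 3 reads), followed by Trpc6 at 27.0, Cspg4 at 25.7, Rgs5 at 23.8, Cox4i2 at 19.2, Abcc9 at 13.0, Notch3 at 11.8, Pdgfrb at 11.1 and Kcnj8 at 4.74. As a description over 6 points that share lungs, antibody sort and scaling, log2 levels of Pdgfrb correlated with the mean of the other 8 members at r = 0.99, Higd1b at 0.98, Cox4i2 and Notch3 at 0.96, Trpc6 at 0.95, Rgs5 at 0.91 and Abcc9 at 0.86. Cspg4 stood at 0.52 and Kcnj8 at 0.30. Among single pairs, Trpc6 with Cox4i2 and Trpc6 with Notch3 were the most alike, at r = 0.999 and 0.998. Abcc9, which was not lower after BLM in unsorted or Lamp1-enriched cells, stood at only 0.76 with Trpc6, 0.77 with Cox4i2 and 0.79 with Notch3.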

How the data were processed

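Mouse lung RNA was sequenced from 3 cell fractions under 2 treatments, 1 library each, and libraries were matched to groups by their labels. The authors deposited whole-number counts of reads for each gene, not normalized. The submitters' processing notes name Trimmomatic 0.36, STAR 2.5.2b, featureCounts of Subread 1.5.2, DESeq2 and GRCm38; the annotation release and strand setting are not given in the sources used here. In the table, 174 of 49315 genes have no name. No column lacked a sample.

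TMM factors over the 6 libraries (edgeR 4.0.16, R 4.3.3) ranged from 0.699 to 1.19. Log2 ratios (Python 3.11.15, numpy 2.4.6, scipy 1.17.1, pandas 2.3.3) added a prior of 0.5 reads and were taken where either library reached 10 reads, and a call is a ratio of at least 2-fold. Each has a 95% interval from the exact binomial (Clopper-Pearson) limits. Reads without molecular identifiers are not independent molecules, so intervals and floors cover counting error only. A gene at 3 reads or fewer is treated as at the floor. No p-value was computed for BLM over sham, because the libraries are not replicated and the fractions of a treatment share lungs. Lamp1-enriched was tested against Lamp1-depleted by edgeR's quasi-likelihood test on the 4 sorted libraries, blocked by treatment, after filterByExpr (1 residual degree of freedom, prior degrees of freedom infinite, biological coefficient of variation 0.316), with Benjamini-Hochberg adjustment over all genes at 0.05. Coordinates and exon lengths are from GENCODE release M21 and upstream sequences from RefSeq.

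The 9 members and the 17 gene lists were chosen with earlier results of these data known. Named genes are the members, the genes of those lists, the 10 genes most like the members' mean among genes with a mean of at least 1 CPM, Lamp1 and Gm26917; 1 gene of these lists is not reported here. Alternatives were DESeq2 1.42.0 size factors and Wald test, total counts with and without Gm26917, a prior of 2 reads, minimums of 1 and 50 reads, counts thinned to the smallest total, calls at a log2 ratio of 2, and leaving out 1 member. The fraction test was also run on all 6 libraries, with unsorted cells as a further level. Scaling factors without the BLM Lamp1-depleted library the comparison of Lamp1-depleted with unsorted cells and the differences between contrasts under other scalings were added after seeing the data, as were the genes most like Cspg4 and Kcnj8.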

Additional observations from a re-analysis of the deposited data

Results flagged for a closer look

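For 4 pericyte genes the ratio of 1 contrast had opposite signs in 2 settings. The differences are given on the log2 scale and compare single libraries; beyond their counting intervals they were not tested.

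Cspg4 was higher after BLM in unsorted cells and lower in Lamp1-enriched cells, a difference of 2.37 (2.19 to 2.54), or 2.09 with total counts in place of TMM. Its ratio in Lamp1-depleted cells was also above that in Lamp1-enriched cells, by 1.63 (1.27 to 1.99), or 0.90 with total counts.

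Rgs5 was higher after BLM in Lamp1-depleted cells only. The difference was 1.52 (1.16 to 1.88) against Lamp1-enriched cells, and unsorted minus Lamp1-depleted cells came to -1.71 (-2.08 to -1.34). Abcc9 had the reverse pattern, with a Lamp1-depleted ratio that differed by -2.09 (-3.06 to -1.12) from the Lamp1-enriched ratio, on 10 BLM reads. With total counts the differences of Rgs5 were 0.79 and -1.25, with a Lamp1-depleted ratio of 0.31 that was no longer at 2-fold, and that of Abcc9 was -2.82. Each of these Lamp1-depleted ratios includes the library in which Gm26917 took 38.4% of the reads.

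Kcnj8 was lower in Lamp1-enriched than in Lamp1-depleted cells of sham lungs and higher in those of BLM lungs, a difference of 1.79 (0.86 to 2.72) (2.52 with total counts) that rests on 13 reads in BLM Lamp1-depleted cells.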

How the results depend on the processing

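No replicate could be left out and no interval here covers the difference between mice. The labels give no replicate numbers to pair by, and the fraction test keeps treatment as a block. Of 133 alternative values of a members' median or count, 57 medians and 61 counts kept within their limits. Beyond their limits, 11 medians moved, 3 counts fell and 1 count rose. Of 360 values of single genes, 322 kept within their limits and 38 moved beyond them. In 9 of the 360 the sign changed, all under total counts (4) or total counts without Gm26917 (5) and to ratios no larger than 0.14 in size, and none of these had been called. With total counts in place of TMM, which shifts every ratio of a comparison by a constant, the median was -1.64 for BLM over sham in unsorted cells (-1.55 without Gm26917), -1.46 in Lamp1-depleted cells (7 members called), 2.67 for Lamp1-enriched over Lamp1-depleted sham cells (2.63) and -0.0514 for Lamp1-enriched over unsorted sham cells (-0.0609). At a log2 ratio of at least 2, 1 member was called for BLM over sham in Lamp1-depleted cells, 0 in Lamp1-enriched cells and 1 for Lamp1-enriched over unsorted BLM cells. Leaving out 1 member moved the unsorted BLM over sham median to between -1.61 and -1.03, the sham sort median up to 3.27 and the median of Lamp1-enriched over unsorted BLM cells down to 0.45. The fraction test called 8 members in each alternative, while calls over all genes went from 4422 higher and 3964 lower to 2873 and 1564 with total counts; the cause was not tested. Depth limits Kcnj8, Abcc9 and Higd1b most, with 13, 10 and 3 reads in BLM Lamp1-depleted cells.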

Other observations

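Genes with a profile like that of the 9 pericyte genes were sought among 16023 genes with a mean of at least 1 CPM, by Pearson's r between log2 CPM and the members' mean over the 6 libraries. The 10 most alike had r between 0.994 and 0.998: 9330104G04Rik, Gpc4, Atp1b2, Map3k20, Triqk, Akr1c14, Adgrg6, Gm10516, Nrxn2 and Pdia5. Gpc4, a cell surface heparan sulfate proteoglycan, gave 8.42, 1.34 and 9.32 CPM in the unsorted, depleted and enriched sham libraries and 3.93, 0.757 and 5.47 CPM in the BLM libraries. Adgrg6, an adhesion G protein-coupled receptor, gave 87.3, 12.6 and 121 CPM in sham and 38.7, 6.77 and 60.1 CPM in BLM cells. With 6 points that share lungs and sort, so high an r is a description of order and size only.

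The same search, made for Cspg4 after its values had been seen, led to Hnrnpll at r = 0.996, Cxcl16 at 0.995 and Aifm2 at 0.992. Cxcl16, a chemokine gene, gave 24.3, 6.25 and 23.8 CPM in the unsorted, depleted and enriched sham libraries and 89.0, 14.01 and 27.4 CPM in BLM cells, and so also peaked in BLM unsorted cells. Sphk1, the gene of a sphingosine kinase, gave 2.18, 0.329 and 2.43 CPM in sham and 8.11, 0.663 and 2.26 CPM in BLM cells. For Kcnj8 the search led to genes of low level such as 2610024D14Rik at r = 0.995 and Zfp974 at 0.994, both highest in sham Lamp1-depleted cells, at 5.05 and 11.01 CPM.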
